A study of Mus musculus with 8 samples.

Results

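Amino acid transporter genes were followed in fully grown mouse oocytes labelled as deficient in Dicer, an enzyme that processes precursor RNA into microRNAs and small interfering RNAs. The set took every gene whose platform symbol carries the name of solute carrier family Slc1, Slc3, Slc6, Slc7, Slc36, Slc38 or Slc43, with 1 probe set per gene, the one with the highest mean signal over 8 arrays. It held 63 of the 18193 genes measured: 7 of Slc1, 2 of Slc3, 21 of Slc6, 16 of Slc7, 5 of Slc36, 9 of Slc38 and 3 of Slc43. Of these, 3 carry the suffix of an opposite-strand gene (Slc7a6os, Slc36a1os and Slc6a19os) and are not transporters themselves.

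The arrays came from 4 mice labelled Dicer knockout and 4 wild-type mice, all females of a mixed 129/C57BL6 background primed with equine chorionic gonadotropin (eCG), a hormone that makes follicles grow. The age of the mice, the allele and the promoter or Cre line behind the knockout are not given in the sources used here. From each mouse 20 oocytes with an intact germinal vesicle, the nucleus of the oocyte before meiosis resumes, were freed of cumulus cells by pipetting, and their RNA was amplified in 2 rounds before hybridisation to an Affymetrix array. Values are log2 signals per probe set, which are not comparable between genes, so only the same probe set is compared between arrays. The number of arrays, 4 a group, limits the precision.

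Amino acid transporters move amino acids across the cell surface and the lysosomal membrane. Slc7 proteins fall into cationic amino acid transporters, which work alone, and light chains, which reach the cell surface bound to a heavy chain, Slc3a2 or Slc3a1. Slc1 proteins carry glutamate or small neutral amino acids with sodium, Slc6 proteins carry glycine, taurine, proline, GABA and monoamines with sodium and chloride, Slc36 proteins use a proton gradient, and Slc38 proteins carry glutamine and other small neutral amino acids. The growing oocyte takes up some amino acids itself and receives others through gap junctions from the cumulus cells, and glycine taken up by Slc6a9 helps the oocyte to control its volume.

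Wild-type array 1 stood apart in genes that were higher in knockout. In a fit that left it out, 494 genes were at least 2-fold higher in knockout, and in 75.7% of them array 1 lay above all 3 other wild-type arrays, against 10.2% to 14.5% for the other wild-type arrays in the same check. Knockout arrays lay beyond their own group towards wild type in 17.9% to 41.6% of such genes. In genes at least 2-fold lower in knockout, array 1 did not stand apart: it lay beyond its group towards knockout in 34.4%, below the 42.1% of knockout array 4 and the 44.6% of wild-type array 3 in the same check. Array medians lay between 6.35 and 6.43. Dicer1 itself read 14.35, 14.32, 14.26 and 14.36 on the knockout arrays, against 13.31, 13.07, 13.10 and 13.04 on the wild-type arrays, so its signal was higher and not lower under the knockout label (limma adjusted p = 2.12e-05). A second Dicer1 probe set was also higher in knockout, by 1.61-fold and with no overlap (limma adjusted p = 0.0017). The exons deleted are not given in the sources used here, and these probe sets do not check the genotype. Oocyte markers were bright in both groups: the mean of 11 such genes was 12.91 to 12.92 on knockout arrays and 12.91 to 13.03 on wild-type arrays, with Zp3 at 14.38 and 14.39 and Gdf9 at 14.56 and 14.63 as group means in knockout and wild type. Of the 11, 3 fell (27.3%), Figla by 0.61, Kit by 0.37 and Mos by 0.36 on the log2 scale. Ddx4 rose 1.86-fold, 1 of 11 (9.09%), and the shares over all genes were 12.8% lower and 8.18% higher. Without single arrays, 2 to 3 fell and 0 to 1 rose.

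Of the 63 genes, 10 rose and 5 fell in knockout oocytes (limma, Benjamini-Hochberg adjusted p under 0.05 over all probe sets). Across all genes, 21% passed this threshold, 8.18% higher and 12.8% lower, so the total of 15 in 63 (23.8%) lay near the background, with the rises at 15.9% and the falls at 7.94%. Changes of at least 2-fold were seen in 2 risers, Slc7a3 and Slc7a8, and in 1 gene that fell, Slc1a1, against 2.36% and 2.04% of all genes. The median log2 difference of the 63 was 0.10, and that of all genes 0.00. The 257 other Slc-named genes rose in 27 cases (10.5%) and fell in 26 (10.1%), and no test of the difference between these sets was made. Without wild-type array 1, 8 of the 63 rose and 4 fell. Without knockout array 3 the counts were 6 and 3, and without wild-type array 2 they were 8 and 3.

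In the Slc7 family 5 of 16 genes were higher and 3 lower, or 50% against the 21% of all genes, while Slc6 had 1 higher and 1 lower of 21 (9.52%). Slc3, Slc36, Slc38 and Slc43 had 1 riser each and no gene that fell, and Slc1 had 1 gene that fell and no riser. Without wild-type array 1 the Slc7 counts were 3 and 2, and without knockout array 3 they were 3 and 1, or 25% against 16.6% of all genes in that fit. Across the fits that left out 1 array, 4 to 7 Slc7 genes passed. Whether the Slc7 share differs from that of other genes was not tested.

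**Figure D1:**
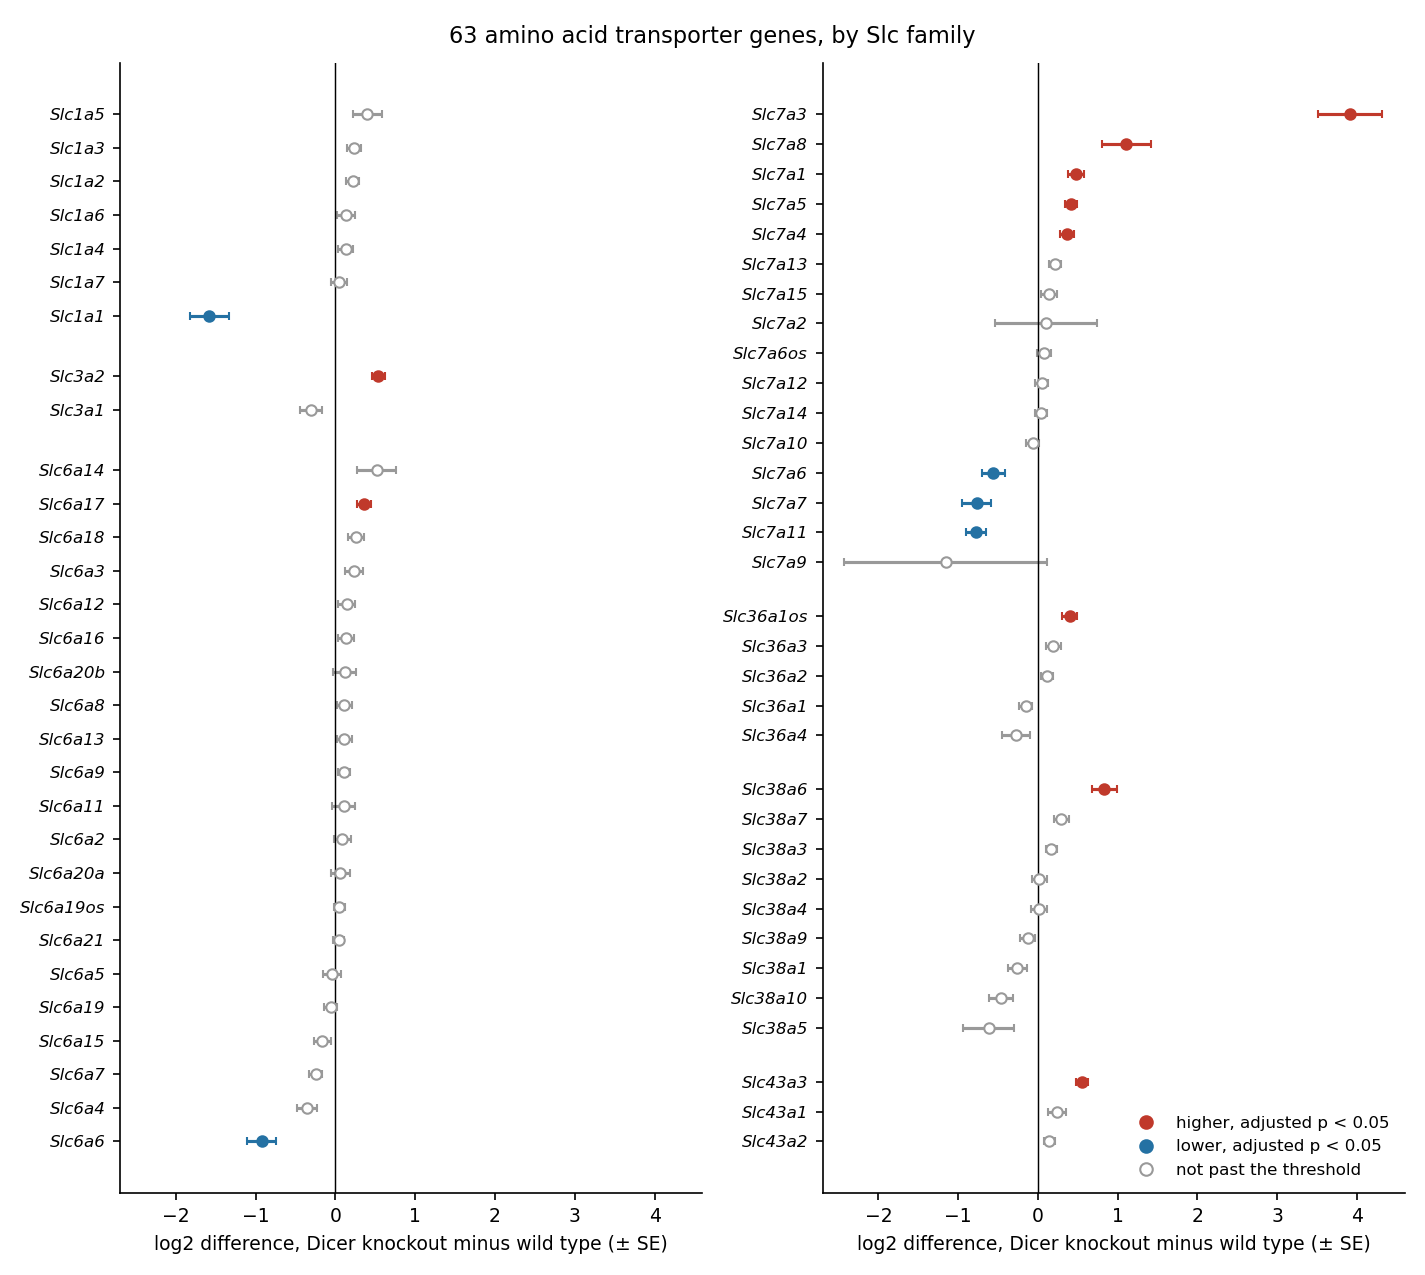
Log2 difference, Dicer knockout minus wild type, of the 63 genes by Slc family, with bars for the SE from limma over 4 arrays a group. Filled points passed the adjusted p threshold (10 higher in red, 5 lower in blue) and open grey points did not, and Slc7a3 at 3.92 lies farthest from 0.

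The cationic amino acid transporters gave the largest rise. Slc7a3, also called CAT3, which carries arginine, lysine and ornithine, read 10.07, 10.19, 9.40 and 9.78 on the knockout arrays, against 7.34, 5.51, 5.43 and 5.496 on the wild-type arrays. All knockout arrays lay above all wild-type arrays, and wild-type array 1 lay above the other 3. The log2 difference was 3.92 ± 0.4 (SE), a 15.1-fold rise (adjusted p = 0.000211), and without wild-type array 1 it was 4.38, or 20.9-fold. Wild-type arrays 2 to 4 lay below 6.4, the median over all probe sets. How far they lie above background is unknown, so the size of the fold is uncertain.

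Slc7a1, or CAT1, the widely expressed arginine and lysine transporter, read 11.85, 12.06, 11.92 and 11.65 in knockout, against 11.50, 11.25, 11.36 and 11.46 in wild type. The groups did not overlap, and the rise was 1.39-fold (log2 0.48 ± 0.0998 SE, adjusted p = 0.0105). A second Slc7a1 probe set had a similar difference of 0.51 that did not pass (adjusted p = 0.0651), and a dim probe set differed by 0.07. Slc7a4, a relative of these transporters, read 7.70, 7.82, 7.89 and 7.69 in knockout, against 7.25, 7.36, 7.57 and 7.48 in wild type, or 1.29-fold higher (adjusted p = 0.0221). Its other probe sets differed by -0.23 and -0.06 and did not pass, and the call ended without knockout array 2 or 3 or wild-type array 1 or 2 (adjusted p up to 0.0618). The remaining genes of this group, Slc7a2 and Slc7a14, did not pass. In this group 3 of 5 thus rose (60%) and none fell, against 8.18% and 12.8% of all genes, and 2 to 3 rose without single arrays.

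The heavy chain Slc3a2, known as 4F2hc or CD98, carries most Slc7 light chains to the plasma membrane. It read 13.06, 13.21, 12.92 and 13.03 in knockout, against 12.61, 12.39, 12.48 and 12.57 in wild type. The groups were apart by more than the range within either, and the rise was 1.45-fold (log2 0.54 ± 0.0851 SE, adjusted p = 0.00236). The other heavy chain, Slc3a1, which pairs with Slc7a9 in kidney and gut to take up cystine and dibasic amino acids, read 5.89, 6.35, 5.99 and 5.99 in knockout and 6.32, 6.09, 6.68 and 6.36 in wild type. Its groups overlapped and it did not pass (log2 -0.30 ± 0.139 SE, adjusted p = 0.189).

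The light chains did not move as 1 group: 2 of 10 rose (20%) and 3 fell (30%), against 8.18% and 12.8% of all genes. Without knockout array 3 the counts were 1 and 1, and without wild-type array 1 they were 1 and 2. Slc7a5, or LAT1, an exchanger of large neutral amino acids such as leucine, read 10.58, 10.41, 10.54 and 10.58 in knockout, against 10.03, 10.26, 10.04 and 10.11 in wild type, with no overlap. It rose 1.33-fold (log2 0.41 ± 0.0792 SE, adjusted p = 0.0065) and passed in each fit that left out 1 array. Slc7a8, or LAT2, an exchanger of neutral amino acids of a broader range of sizes, read 8.81, 7.62, 8.01 and 8.29 in knockout, against 7.29, 7.76, 6.53 and 6.71 in wild type. It rose 2.16-fold (adjusted p = 0.0345), but knockout array 2 lay below wild-type array 2, and the call ended when any of 6 arrays was left out (adjusted p up to 0.0932). These were knockout arrays 1, 3 and 4 and wild-type arrays 1, 3 and 4.

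Slc7a11, or xCT, which exports glutamate in exchange for cystine and so feeds glutathione synthesis, fell. It read 10.14, 10.44, 10.08 and 10.24 in knockout, against 10.77, 11.28, 10.93 and 11.02 in wild type. All knockout arrays lay below all wild-type arrays, and the log2 difference was -0.78 ± 0.12 (SE), or 0.584-fold (adjusted p = 0.00213). The other Slc7a11 probe set read 9.26, 9.75, 9.64 and 9.48 in knockout, against 9.26, 9.41, 9.49 and 9.59 in wild type, with a difference of 0.10 that did not pass (adjusted p = 0.642). The fall was therefore seen in 1 of the 2 Slc7a11 probe sets.

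Slc7a6 and Slc7a7, the exchangers y+LAT2 and y+LAT1, release cationic amino acids from the cell in return for neutral ones. Slc7a7 read 8.04, 8.04, 8.04 and 8.55 in knockout, against 8.59, 9.09, 9.38 and 8.69 in wild type, a fall of 0.77 on the log2 scale (SE 0.187, adjusted p = 0.0209). Slc7a6 read 5.55, 5.41, 5.20 and 5.67 in knockout, against 6.09, 6.26, 5.67 and 6.03 in wild type, a difference of -0.56 ± 0.14 (SE, adjusted p = 0.0237). Knockout array 4 was the highest knockout array for both genes and lay close to the lowest wild-type array in each. The call of Slc7a7 ended without knockout array 1, 2 or 3 or wild-type array 2 (adjusted p up to 0.0607), and that of Slc7a6 without knockout array 2 or 3 or wild-type array 1, 2 or 4 (adjusted p up to 0.0637). Their other, dimmer probe sets did not pass (Slc7a7 0.05, Slc7a6 -0.28).

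**Figure D2:**
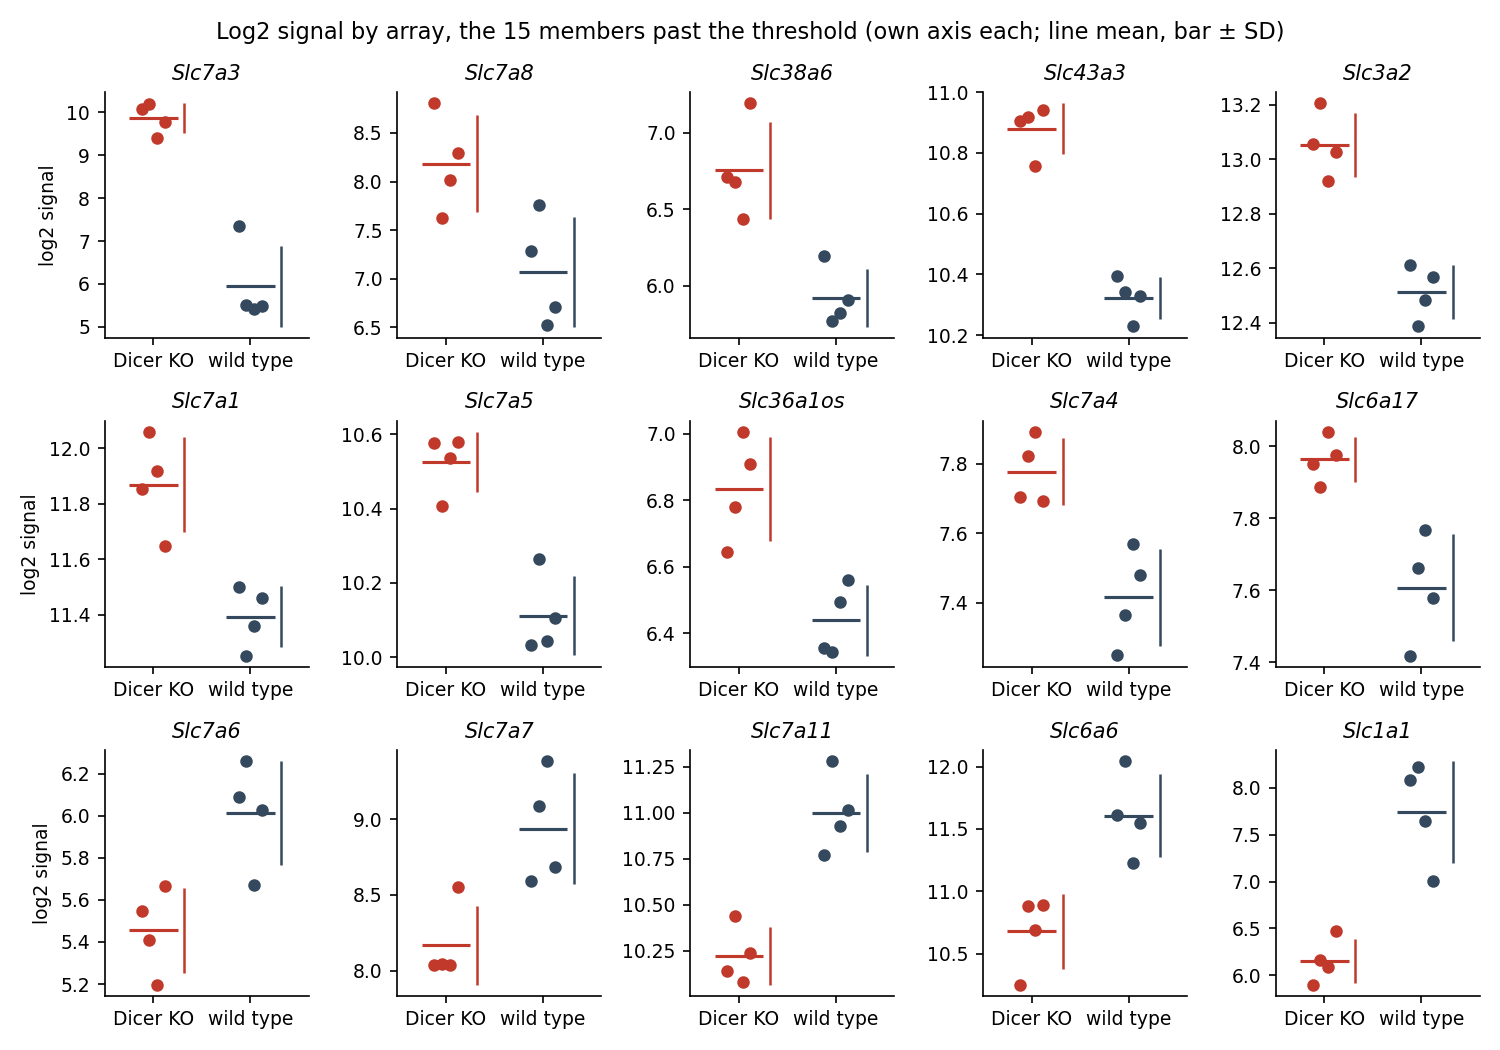
Log2 signal by array of the 15 genes that passed the threshold, in order of their difference, with Dicer knockout left and wild type right in each panel. Points are arrays (4 a group), horizontal lines group means and vertical bars ± SD, each panel has its own axis, and the groups overlap only in Slc7a8.

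In Slc1 and Slc6 the changes were 2 falls and 1 rise. Slc1a1, or EAAT3, which takes up glutamate, aspartate and cysteine, read 5.90, 6.16, 6.09 and 6.47 in knockout, against 8.08, 8.22, 7.65 and 7.01 in wild type. The groups did not overlap, and the log2 difference of -1.58 ± 0.243 (SE), or 0.334-fold, was the largest fall of the 63 genes that passed (adjusted p = 0.00201). A second Slc1a1 probe set fell by 1.61 on the log2 scale (adjusted p = 0.00309), and a further one differed by -0.21 and did not pass (adjusted p = 0.266).

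Slc6a6, the taurine transporter, read 10.25, 10.89, 10.69 and 10.89 in knockout, against 11.61, 12.04, 11.23 and 11.55 in wild type. It fell by 0.93 on the log2 scale (SE 0.187, 0.526-fold, adjusted p = 0.00861), with no overlap. A second probe set fell by 1.08 (adjusted p = 0.0334), and the remaining 2, both dimmer, differed by -0.15 and -0.10. Slc6a17, a vesicular transporter of neutral amino acids known from neurons, read 7.95, 7.89, 8.04 and 7.98 in knockout, against 7.42, 7.66, 7.77 and 7.58 in wild type, or 1.28-fold higher (adjusted p = 0.0208). Its other probe sets differed by 0.25 and 0.10 and did not pass, and the call ended without knockout array 3 or 4 or wild-type array 4 (adjusted p up to 0.0582).

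Markers of the cumulus and granulosa cells that surround the oocyte were also lower in knockout. Of 18 such markers measured, 9 fell and none rose, against 12.8% of all genes lower, with Nr5a2 (log2 -0.44, adjusted p = 0.00863) and Cyp11a1 (log2 -1.57, adjusted p = 0.0101) at the lowest p. Their mean log2 signal was 7.63, 7.58, 7.49 and 7.77 on the knockout arrays, against 8.27, 7.95, 7.93 and 8.34 on the wild-type arrays, and the count was 6 without wild-type array 1 and 5 without knockout array 3. Knockout array 4, with the highest marker mean of its group, also had the highest knockout signal of Slc1a1, Slc7a6 and Slc7a7. Slc6a6 was highest there too, at 10.888 beside 10.886 on knockout array 2, while Slc7a11 was highest on knockout array 2. In wild type the order differed between genes. Arrays 4 and 1 had the highest marker means, but array 4 had the lowest signal of Slc1a1, and array 1 the lowest of Slc7a7 and Slc7a11. Wild-type array 3, with the lowest marker mean, had the lowest signal of Slc6a6 and Slc7a6, which were both highest on wild-type array 2. The part of these cells in the falls was not tested, and fewer cells of a type cannot be told apart from less RNA per cell in pooled oocytes. Of 14 markers of other ovarian and blood cells, Cd68 rose (2.24-fold), while Tek and Kdr fell (log2 -0.78 and -0.54). These are 7.14% higher and 14.3% lower, near the 8.18% and 12.8% of all genes. That list's mean was 6.32 to 6.48 on knockout arrays and 6.39 to 6.53 on wild-type arrays. The ovulatory cumulus genes Has2, Ptx3 and Tnfaip6 were dim, with group means of 5.42, 5.40 and 3.41 in knockout and 5.501, 5.42 and 3.32 in wild type.

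Slc36, Slc38 and Slc43 had 1 riser each. Slc38a6, a sodium-coupled transporter reported to carry glutamine and glutamate, read 6.71, 6.68, 6.44 and 7.19 in knockout, against 6.19, 5.77, 5.82 and 5.91 in wild type. It rose 1.78-fold (log2 0.83 ± 0.158 SE, adjusted p = 0.00629), and its dimmer second probe set differed by 0.01 and did not pass. Slc43a3 is named with the leucine transporters of its family and is known to carry purine nucleobases. It read 10.90, 10.92, 10.76 and 10.94 in knockout, against 10.39, 10.34, 10.23 and 10.33 in wild type, a 1.47-fold rise with the lowest SE of the risers (log2 0.56 ± 0.0729 SE, adjusted p = 0.000852). Slc36a1os, on the strand opposite to a proton-coupled transporter gene, rose 1.32-fold (adjusted p = 0.0196), and without knockout array 3 or 4 or wild-type array 2 it did not pass (adjusted p up to 0.0573). Slc36a1 itself differed by -0.15 and did not pass (adjusted p = 0.276).

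Slc38a7, which releases glutamine and asparagine from lysosomes, lay at the threshold. It read 10.35, 10.63, 10.30 and 10.32 in knockout, against 10.11, 10.18, 10.02 and 10.10 in wild type, a non-overlapping difference of 0.30 ± 0.0889 (SE, adjusted p = 0.0502), and it passed under 5 other settings of scaling, filter or probe set choice. The groups also did not overlap in 3 other genes that did not pass, Slc38a3 (0.17), Slc7a13 (0.21) and Slc43a2 (0.14). In all, 18 of the 63 genes (28.6%) had groups that did not overlap, against 26.2% of all genes.

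Transporters described for the oocyte and early embryo did not all change. Slc6a9, or GlyT1, the glycine transporter, read 13.25, 13.19, 13.10 and 13.18 in knockout, against 12.98, 13.03, 13.07 and 13.22 in wild type. The groups overlapped, and the difference was 0.10 ± 0.0756 (SE, adjusted p = 0.419). Slc6a20a, which carries proline and betaine, differed by 0.06 ± 0.117 (SE, adjusted p = 0.79), and Slc38a3, a glutamine and histidine carrier of system N, by 0.17 ± 0.072 (SE, adjusted p = 0.153). With Slc1a1, Slc6a6 and Slc7a11, the list of 6 transporters described for oocytes, embryos or their follicle cells held 3 that fell (50%) and none that rose, against 12.8% and 8.18% of all genes. This list too was chosen with results on these arrays known.

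A list of 10 genes reported as targets of Atf4, the transcription factor that cells use when amino acids are short, held 4 risers (Slc7a3, Slc3a2, Slc7a1 and Slc7a5) and 1 gene that fell (Slc7a11), with a median log2 difference of 0.32. These are 40% and 10%, against 8.18% and 12.8% of all genes. The counts without wild-type array 1 were also 4 and 1. Of the others, Slc1a5, or ASCT2, which takes up glutamine, read 6.47, 6.97, 6.90 and 7.49 in knockout, against 6.35, 6.66, 6.53 and 6.69 in wild type, with overlap (log2 0.40 ± 0.185 SE, adjusted p = 0.19). Slc38a2, or SNAT2, of system A, differed by 0.02 ± 0.0887 (SE, adjusted p = 0.916), and Slc43a1, or LAT3, by 0.24 ± 0.109 (SE, adjusted p = 0.181). The other Slc38a2 probe sets, both dimmer, differed by -0.84 ± 0.347 (SE, adjusted p = 0.141) and 0.12 and did not pass. For Slc1a4, or ASCT1, which carries serine and alanine, the brightest probe set differed by 0.13 (adjusted p = 0.416), while its other probe sets rose by 0.44 (adjusted p = 0.0122) and 0.43 (adjusted p = 0.0381). Slc6a9, described above (log2 0.10 ± 0.0756 SE), was also on this list and did not pass. The Atf4 list was chosen with results on these arrays known, so its direction is no independent evidence.

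The shared core of the amino acid response element, TGATGNAA on either strand, was searched for in RefSeq promoter windows of assembly GRCm38.p6, from 250 bases before to 50 after a gene's start. Promoter windows were found for 46 of the 63 genes. The core occurred in 4 of them (8.70%), against 4.51% of 27025 genes in that table. Among the risers it was in 0 of 6 genes with a window, and among the genes that fell in 2 of 4, Slc7a11 and Slc7a7, while Slc1a4 and Slc6a21 had it among the rest. Slc7a3, Slc7a5 and Slc6a6 had no entry. A match is a description of these letters only. The windows below are those of Slc7a11, which fell in 1 of 2 probe sets, of Slc7a7, which fell and for which the window with the most matches is shown, of Slc1a4, whose probe sets differ, and of Slc3a2, which rose, all 5′ to 3′ on the gene's strand (minus for all), with the core in capitals.
Slc7a11, chr3:50443564-50443863: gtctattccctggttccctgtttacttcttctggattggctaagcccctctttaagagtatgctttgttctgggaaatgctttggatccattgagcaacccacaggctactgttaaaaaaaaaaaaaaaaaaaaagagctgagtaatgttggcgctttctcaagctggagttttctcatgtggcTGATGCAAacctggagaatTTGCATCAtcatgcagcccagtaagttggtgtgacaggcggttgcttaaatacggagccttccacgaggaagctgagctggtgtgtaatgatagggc
Slc7a7, chr14:54417895-54418194: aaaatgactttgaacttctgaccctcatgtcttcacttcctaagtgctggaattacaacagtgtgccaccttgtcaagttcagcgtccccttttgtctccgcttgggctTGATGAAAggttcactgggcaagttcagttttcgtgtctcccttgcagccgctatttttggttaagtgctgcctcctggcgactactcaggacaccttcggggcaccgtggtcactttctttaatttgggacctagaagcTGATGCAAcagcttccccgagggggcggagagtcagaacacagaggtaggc
Slc1a4, chr11:20332664-20332963: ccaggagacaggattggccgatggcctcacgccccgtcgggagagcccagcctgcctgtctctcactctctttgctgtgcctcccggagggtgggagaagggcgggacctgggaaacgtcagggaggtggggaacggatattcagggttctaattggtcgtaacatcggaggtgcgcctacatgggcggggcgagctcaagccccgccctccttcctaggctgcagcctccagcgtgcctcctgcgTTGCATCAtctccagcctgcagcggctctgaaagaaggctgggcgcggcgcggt
Slc3a2, chr19:8713848-8714147: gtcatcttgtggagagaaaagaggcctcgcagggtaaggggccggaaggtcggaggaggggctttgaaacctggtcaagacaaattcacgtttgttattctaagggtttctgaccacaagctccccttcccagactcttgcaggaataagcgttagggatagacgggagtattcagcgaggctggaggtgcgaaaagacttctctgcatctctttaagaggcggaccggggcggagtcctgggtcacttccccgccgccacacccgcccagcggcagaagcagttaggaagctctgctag

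In the Slc7a11 window the core lies on both strands, beginning 66 and 47 bases upstream of the gene's start, and in the Slc1a4 window it begins 4 bases upstream. Slc7a7 had 5 windows, from alternative starts. In the one printed the core begins 141 and 1 bases upstream, and the copy at 1 base runs past the start. Another, overlapping window holds that same copy, beginning 243 bases upstream of its own start, and the other 3 windows do not have the core.

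Genes with several probe sets did not always give 1 answer. The 63 genes had 125 probe sets, of which 16 rose and 7 fell, against 6.82% and 9.31% of all probe sets. Of the 9 genes that passed and had more than 1 probe set, Slc1a1 and Slc6a6 had a second one that passed the same way. In 4 genes that did not pass by their brightest probe set, another probe set rose: Slc1a3, Slc1a4, Slc6a20b and Slc7a2. Named after its values were seen, the second Slc6a20b probe set read 9.55, 9.39, 9.38 and 9.31 in knockout, against 8.45, 8.32, 7.84 and 7.996 in wild type, a non-overlapping rise of 1.25 ± 0.133 (SE) on the log2 scale (adjusted p = 0.00026). The brighter Slc6a20b probe set differed by 0.12 (adjusted p = 0.662). Slc6a20a and Slc6a20b are close paralogues, and which transcripts each probe set detects was not tested.

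**Figure D3:**
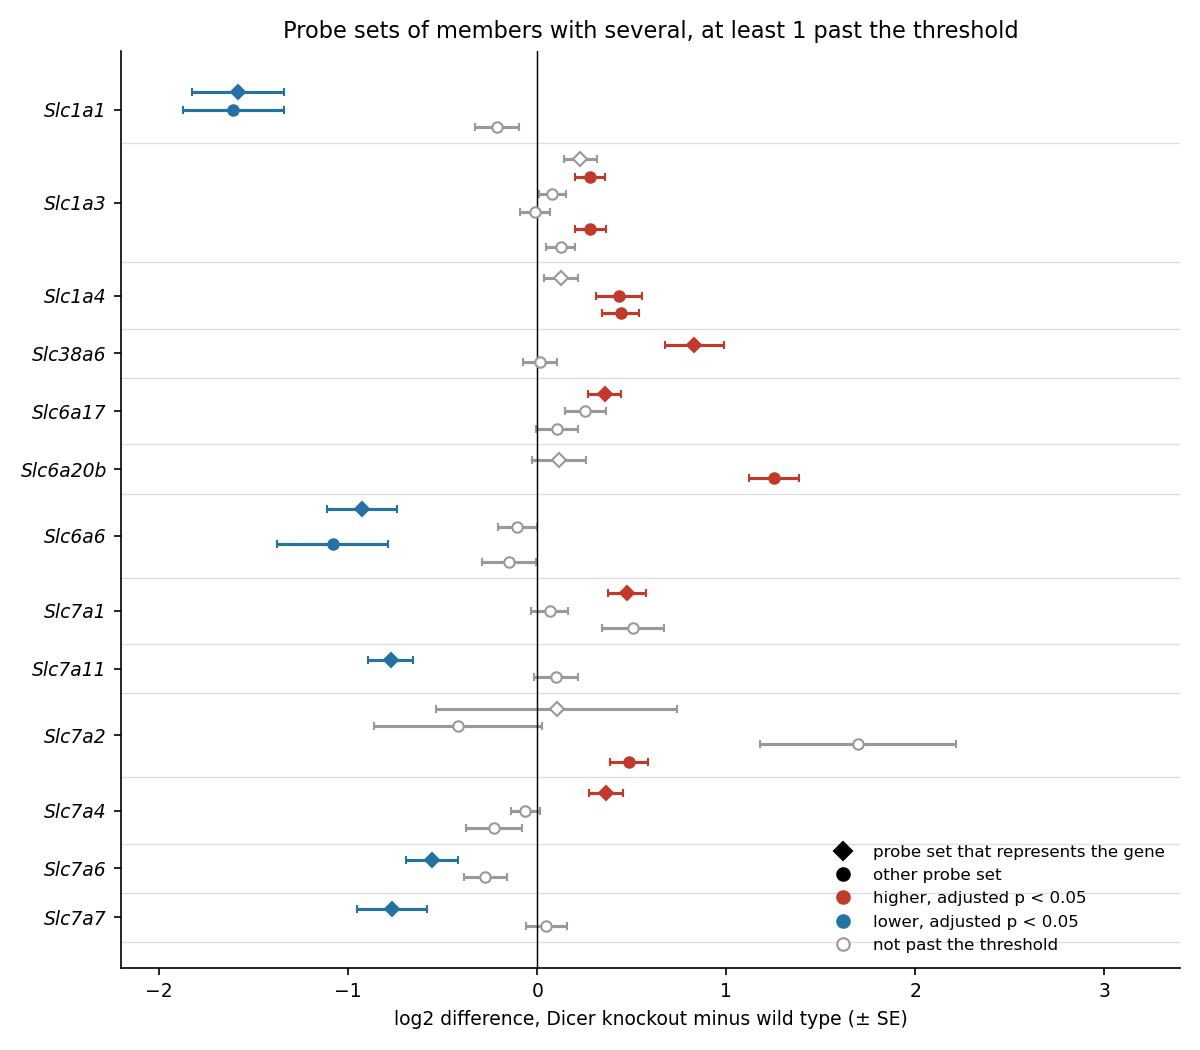
Log2 difference, Dicer knockout minus wild type (± SE from limma, 4 arrays a group), of every probe set of the 13 genes that have several and at least 1 past the threshold. Diamonds are the probe sets that represent the gene and circles the others, and Slc6a20b and Slc7a2 have a second probe set far to the right of the first.

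The widest spread between mice was in Slc7a9 and Slc7a2, which are named here because of that spread. Slc7a9, the light chain of the cystine transporter b0,+AT, read 5.68, 8.76, 5.47 and 8.91 in knockout, against 9.47, 10.52, 4.59 and 8.87 in wild type. High and low arrays occurred in both genotypes, over a range of 5.93 on the log2 scale, and only 7 of the 18193 genes had a larger SD within groups. The difference between genotypes was -1.16 ± 1.28 (SE, adjusted p = 0.615).

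Slc7a2, or CAT2, a cationic amino acid transporter with splice forms of unlike affinity, read 9.003, 10.65, 10.73 and 11.55 in knockout, against 11.48, 11.32, 9.22 and 9.49 in wild type. The groups overlapped, and 65 genes had a larger SD within groups. A second Slc7a2 probe set read 9.70, 10.87, 10.90 and 11.49 in knockout, against 10.20, 9.69, 8.01 and 8.27 in wild type, with a difference of 1.70 ± 0.52 (SE) that did not pass (adjusted p = 0.0543). A dimmer probe set rose by 0.49 (6.83, 7.005, 6.92 and 7.14 in knockout, 6.71, 6.47, 6.45 and 6.32 in wild type, adjusted p = 0.0104), and the last differed by -0.42. Wild-type arrays 3 and 4, the lowest of the wild-type arrays in all 4 probe sets, share the number 28 in their titles, and the sources used here do not say what this number is.

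**Figure D4:**
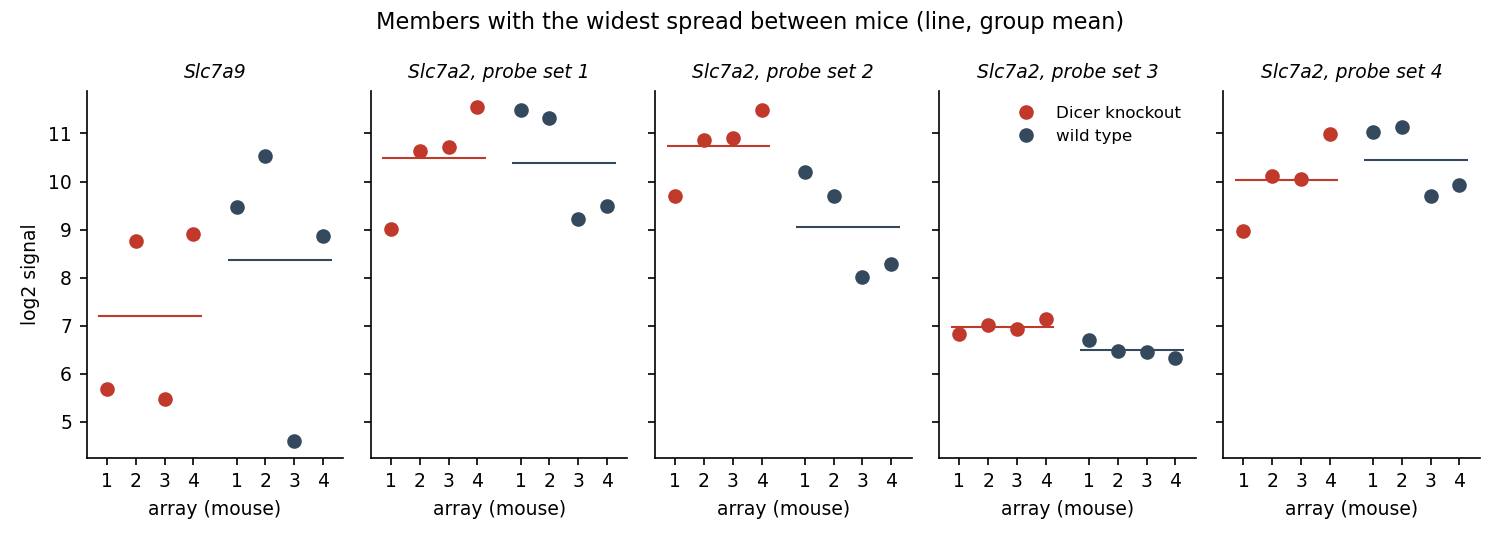
Log2 signal on each array of Slc7a9 and of the 4 Slc7a2 probe sets, the first of which represents the gene, with Dicer knockout mice 1 to 4 left and wild-type mice 1 to 4 right. Points are arrays and lines group means, and in Slc7a9 both groups hold arrays above 8.7 and arrays below 5.7.

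The other 48 genes, those that did not pass, had log2 differences of -1.16 to 0.52. Of them 34 were above 0 and 14 below, 31 lay within 0.2 of 0, and the median SE was 0.0993. In each family the one with the lowest p was Slc1a2 (0.22, adjusted p = 0.0988), Slc3a1, Slc6a7 (-0.25, adjusted p = 0.0764), Slc7a13 (0.21, adjusted p = 0.104), Slc36a3 (0.19, adjusted p = 0.205), Slc38a7 and Slc43a1. Slc1a2 is the main glutamate transporter of astrocytes, and Slc6a7 carries proline in the brain. None of the 3 monoamine transporters of Slc6 passed, nor the 4 proton-coupled transporters of Slc36 or the 3 system A transporters of Slc38. All 63 genes were tested with no filter on low signals, and 41 of them had a mean above 6.4, the median over all probe sets. Of the 15 that passed, 13 did.

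Among 26 measured genes that move amino acids or peptides and lie outside these families, 4 rose and 4 fell (3 and 3 without wild-type array 1), or 15.4% each, against 8.18% and 12.8% of all genes. Without single arrays, 3 to 5 rose and 2 to 5 fell. Slc15a1, a proton-coupled carrier of di- and tripeptides known from the gut, averaged 6.86 ± 0.717 in knockout and 4.04 ± 0.219 in wild type (SD, n = 4 each), or 7.05-fold higher (limma adjusted p = 0.000283). Slc15a2, its relative of higher affinity, rose 2.45-fold (adjusted p = 0.0025). Slc25a13, the mitochondrial aspartate and glutamate carrier citrin, fell by 1.63 on the log2 scale (adjusted p = 0.0015), and Slc66a1, which exports cationic amino acids from lysosomes, by 0.53 (adjusted p = 0.00573). Of the 44 mitochondrial carriers of Slc25, 3 rose (6.82%) and 5 fell (11.4%), which is near the share of all genes.

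Genes through which amino acids are sensed by the kinase complex mTORC1 went both ways, with 3 of 34 higher (8.82%) and 6 lower (17.6%), near the 8.18% and 12.8% of all genes. Castor1, an arginine sensor, averaged 10.82 ± 0.102 in knockout and 10.20 ± 0.0455 in wild type (SD, n = 4 each, limma adjusted p = 0.000492), and Sesn2, a leucine sensor, rose 2.26-fold. Seh1l and Wdr24, subunits of the GATOR2 complex that both sensors bind, fell by 0.45 and 0.95 on the log2 scale (adjusted p = 0.00222 and 0.0041).

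Of 25 measured genes of the amino acid response, which cells raise when amino acids run short, 11 rose (44%) and 1 fell (4%). The shares over all genes were 8.18% and 12.8%. Their median log2 difference was 0.46, beside 0.00 over all genes. Leaving out single arrays gave 9 to 12 risers and 1 to 2 falls, and the 12 came without wild-type array 1. Cebpg, a partner of Atf4, averaged 12.03 ± 0.0487 in knockout and 11.49 ± 0.0521 in wild type (SD, n = 4 each, limma adjusted p = 0.000548). Shmt2, of mitochondrial serine metabolism, rose 2.06-fold (adjusted p = 0.000883). The gene that fell was Eif2ak4, or GCN2, the kinase that senses uncharged transfer RNA, by 0.40 on the log2 scale (adjusted p = 0.0154). Like the Atf4 list, this list was chosen with results on these arrays known, so its direction is no independent evidence.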

How the data were processed

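The deposited values are log2 signals of 45101 probe sets on 8 arrays, 1 per mouse, which the authors made with RMA and Partek, per the submitters' processing notes (no version is given there). Per the labels' protocols, RNA was isolated with the PicoPure kit and amplified linearly in 2 rounds. Such amplification generally favours transcript 3′ ends, and RMA tends to compress differences of dim genes. Gene names came from the annotation of the platform, in which 34945 probe sets had 1 symbol, 932 several and 9160 none, and those without exactly 1 symbol were not named. All 63 members matched the RefSeq gene table of GRCm38.p6. Knockout was compared with wild type by limma 3.58.1 in R 4.3.3 (lmFit, eBayes, no covariates), with Benjamini-Hochberg adjustment over 45037 probe sets (64 controls left out), and rose and fell refer to adjusted p under 0.05. The fit was tested on simulated data. Errors are SDs over 4 arrays a group or moderated SEs. The labels give each mouse as a sample, and 0 pairs of arrays were identical. Counts without single arrays by family and list, and a fit with the title number as a fixed block, were added after seeing the data.

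Members and lists were chosen with earlier results of these data known. Genes named by rule are every member past the threshold, the Atf4 and oocyte lists, the heavy chains, the member with the lowest p among those not past it in each family, and in every other list the 2 with the lowest p in each direction. Some genes are named outside this rule, such as all 3 oocyte markers that fell, Zp3, Gdf9, Has2, Ptx3 and Tnfaip6. In the cell type lists Npm2, Cyp19a1, Lhcgr and Hbb-bs had no probe set with a single symbol.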

Additional observations from a re-analysis of the deposited data

Results flagged for a closer look

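Single arrays far from the other 3 of their group were looked for in 56 sets of 4 values, both groups of each of the 28 genes named by rule. This picked out 3 sets, and about 2.8 would be picked by chance. Slc7a3 read 7.34 on wild-type array 1 while wild-type arrays 2 to 4 lay between 5.43 and 5.51. Slc7a7 read 8.55 on knockout array 4 and 8.04 on each of the other knockout arrays. Slc1a4 read 7.89 on knockout array 1 and 7.71 to 7.72 on the other knockout arrays.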

How the results depend on the processing

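The counts of 10 higher and 5 lower genes were 9 to 11 and 4 to 5 under 11 other settings of scaling, filter, variance model, weights, blocks and probe set choice, and 9 and 5 without the opposite-strand names. Leaving out single arrays gave 6 to 10 higher and 3 to 6 lower, and medians of 0.0534 to 0.14, where the full fit gave 0.10. Of the 15 calls, 9 held whichever array was left out. Among called genes that stayed in the test, 4 calls ended under those 11 settings: Slc6a17 (adjusted p = 0.106), Slc7a4 (0.879) and Slc7a7 (0.0542) with probe sets averaged per gene, and Slc7a8 (0.0536) with robust eBayes. With that average, 12 of the 15 calls were kept among 16. Slc38a2, near 0 in the full fit, turned to -0.00886 with equal array medians and -0.00497 with array weights. With the mean of its probe sets it was -0.233, and that mean takes in the dimmer probe set that differed by -0.84. Slc38a2 ranged from -0.0199 to 0.0849 without single arrays, and Slc6a20a from -0.0298 to 0.136. The cause of the other turns was not tested. Numbers in the titles are shared by arrays of both groups only for 24 and 27, and the sources used here do not say that it pairs mice (correlation within numbers -0.0778). With it as a random block 15 calls were kept. With it as a fixed replicate block, added after seeing the data, the contrast rests on these 2 pairs with 2 residual degrees of freedom, and 3 genes were higher and 2 lower. Of the 15 calls 4 were kept, Slc7a3, Slc3a2, Slc1a1 and Slc6a6, Slc1a5 passed as well (adjusted p = 0.0416), and Slc1a4 turned to -0.0203. Dropping dim probe sets removed Slc38a6 and Slc7a6 from the test. Dropping probe sets with the suffix x, s or a in their names removed Slc3a2 and Slc7a7, which both carry the suffix a. No detection calls were used, so how far dim signals lie above background is unknown.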
